A study of Mus musculus with 14 samples.

Results

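Medium spiny neurons are the principal projection neurons of the striatum, a forebrain region that lies apart from the hippocampus. Those of the direct pathway carry the dopamine receptor Drd1 and the peptide precursor Tac1, and those of the indirect pathway carry Drd2, the adenosine receptor Adora2a and the peptide precursor Penk. Both kinds share a cAMP signalling machinery that includes Ppp1r1b, Rgs9 and Pde10a. Some of these genes, Drd1 and Penk among them, are also transcribed by neurons of the hippocampus itself.

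These 9 genes with the transcription factor gene Rarb completing the set (Drd1, Drd2, Adora2a, Ppp1r1b, Rgs9, Pde10a, Penk, Tac1 and Rarb) were followed through bulk RNA-seq of mouse hippocampus. They were found by gene symbol in the GENCODE M21 annotation, and 9 of the 55536 Ensembl genes in the count table matched. All 9 had passed the minimum of 10 counts summed over the libraries, as had 38070 genes in all. The genes were chosen by their CPM in these same libraries, where they had been seen to be high in 1 of them, so their values are given as a description, without a test.

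The series held 14 libraries of hippocampus taken at 10 months of age after perfusion with cold buffer. There were 4 libraries from MRL mice, 4 from MRL-IRAK4-KD mice, 3 from C57BL6/J mice and 3 from IRAK4-KD mice. MRL mice here are B6.MRL-Faslpr mice, which carry the lpr mutation of the death receptor gene Fas on a C57BL/6 background and develop lupus-like disease. MRL-IRAK4-KD mice are MRL mice crossed with mice carrying a kinase-dead form of IRAK4, the kinase downstream of Toll-like and interleukin-1 receptors. IRAK4-KD mice carry that form without lpr, and C57BL6/J mice carry neither. Both mutations are present in every tissue of the animal, so none of the groups is specific to a brain region or a cell type. The labels number the libraries of a group without naming animals, and the study plots hippocampal RNA with 1 mouse per point, so each library is taken here as 1 mouse.

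Total counts assigned to Ensembl genes ran from 279723718 to 571925600 per library. They were 1.40 to 2.08 times the reads that the submitters' lane sheet lists for the same library, so a count in these tables is not a single read. The kinase-dead mutation alters a protein domain, and gene counts do not check it, but the lpr mutation can be read from the Fas transcripts. Fas-201, the full-length form, had 0 counts in all 8 libraries of the lpr groups and 345 to 584 in the 3 C57BL6/J libraries and IRAK4-KD replicates 1 and 2. Fas-204 had 268 to 964 counts in the lpr groups and at most 7 in those 5 libraries. The library labelled IRAK4-KD replicate 3 had 0 counts of Fas-201 and 514 of Fas-204, so its Fas transcripts went against its label. A different library, MRL-IRAK4-KD replicate 4, stood apart over all genes. It scored 102 on a first principal component that held 51.3% of the variance, where no other library scored above 3.58. It was also the highest of the 14 libraries for 26.0% of the 38070 genes and the lowest for 25.2%. Because of both, the members' fold changes are given with and without the libraries that bear on them. All 14 libraries stood in 1 fit, so each of the 2 also entered the standard errors of comparisons between other groups.

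Promoter sequence was available for 6 of the 9 genes, in 8 windows of 250 bases before to 50 bases after a RefSeq start. Promoters of Adora2a, Ppp1r1b and Penk were not analysed here. Short stretches from Rarb and Tac1 are shown because they hold motifs tied to the signals that these genes are known to answer, retinoic acid for Rarb and cAMP for Tac1. Capitals mark the motif, and the build is GRCm38.p6.
Rarb: ggaaggGTTCACcgaaaGTTCACtcgcat
Tac1: tccctaaaatTGCGTCAtttcgaacac
The Rarb stretch lies on the minus strand at chr14:16575506-16575534 and its motif begins 52 bases before the RefSeq start, within the first exon (5′ UTR) of the GENCODE transcript Rarb-201, which starts further upstream. It holds 2 direct repeats of GTTCAC spaced by 5 bases, the arrangement of a retinoic acid response element. Searched on both strands, GTTCACNNNNNGTTCAC was found in 2 of 32851 promoter windows of this length (0.00609%). The Tac1 stretch lies on the plus strand at chr6:7554852-7554878, with its motif 199 bases before the RefSeq start and directly upstream of the GENCODE transcript Tac1-205. TGCGTCA, a CRE-like element, was found in 695 of the windows (2.12%), and the full element TGACGTCA, a different string that can stand in the same window, was found in 588 (1.79%) and in none of the members'. A match describes these letters and is not evidence of a bound factor.

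The 9 genes shared a single pattern. In the library labelled IRAK4-KD replicate 3, all 9 were at their highest of the 14 libraries, where 9.09% of all tested genes were highest in that library. Their levels there, in CPM (counts scaled to library size, with TMM factors), were 2.75 to 11.8 times the median of the other 13 libraries, with a median ratio of 4.12. Over all tested genes the median of the same ratio was 0.994. For 7 of the 9, all but Ppp1r1b and Tac1, that level was at least 2 times the highest of the other 13, which held for 0.612% of all genes. These counts restate how the genes were chosen and support nothing further. In bulk tissue, more cells of a type and more RNA per cell cannot be told apart.

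**Figure D1:**
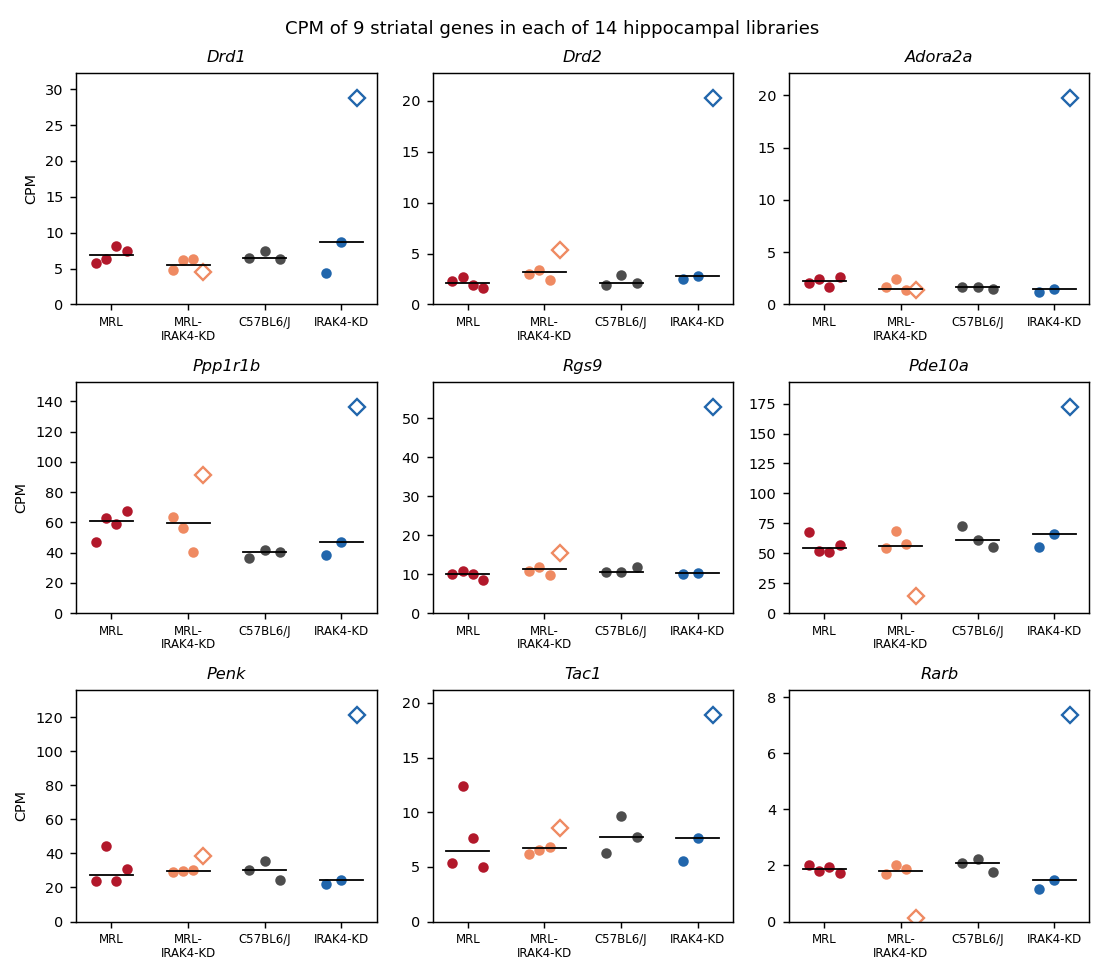
Level of each of the 9 genes (CPM, linear axis from 0) in each library of the 4 groups, with a black line at the group median. Circles are single libraries, and open diamonds are MRL-IRAK4-KD replicate 4 and the library labelled IRAK4-KD replicate 3, which sits above all others in all 9 panels (28.8 CPM for Drd1, against 8.64 in the next highest library).

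Drd1, the dopamine receptor of the direct pathway that raises cAMP (ENSMUSG00000021478.6, chr13:54051183-54055705, mm10), was at 5.82, 6.29, 8.11 and 7.49 CPM in the MRL libraries and at 4.82, 6.25, 6.40 and 4.52 CPM in the MRL-IRAK4-KD libraries. C57BL6/J libraries held 6.43, 7.47 and 6.28 CPM, and IRAK4-KD libraries 4.34, 8.64 and 28.8 CPM. The last value stood alone, and the other 13 overlapped between all 4 groups. Drd2, the dopamine receptor of the indirect pathway that lowers cAMP (ENSMUSG00000032259.8, chr9:49340627-49408177), had 2.26, 2.71, 1.93 and 1.64 CPM in MRL and 3.01, 3.38, 2.36 and 5.34 CPM in MRL-IRAK4-KD. It had 1.87, 2.88 and 2.13 CPM in C57BL6/J and 2.48, 2.75 and 20.3 CPM in IRAK4-KD. MRL-IRAK4-KD replicate 4 held the next highest level, at 2.21 times the median of the 12 libraries without either of those that stand apart.

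Adora2a, the adenosine receptor that opposes Drd2 in indirect pathway neurons (ENSMUSG00000020178.6, chr10:75316877-75334784), showed the widest gap. MRL libraries had 2.05, 2.43, 1.67 and 2.64 CPM, and MRL-IRAK4-KD libraries 1.64, 2.40, 1.37 and 1.38 CPM. C57BL6/J libraries had 1.70, 1.67 and 1.52 CPM, and IRAK4-KD libraries 1.15, 1.49 and 19.7 CPM. The library labelled IRAK4-KD replicate 3 thus held 7.49 times the level of the next highest, an MRL library. With it, the IRAK4-KD mean was 7.46 ± 10.6 CPM (SD, n = 3), and without it 1.32 ± 0.245 CPM (SD, n = 2), against 1.63 ± 0.098 CPM (SD, n = 3) in C57BL6/J.

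Ppp1r1b encodes DARPP-32, an inhibitor of protein phosphatase 1 that is switched by dopamine (ENSMUSG00000061718.12, chr11:98348404-98357796). It was at 47.2, 62.6, 58.9 and 67.4 CPM in MRL and at 63.6, 55.9, 40.2 and 91.5 CPM in MRL-IRAK4-KD. It was at 36.1, 41.5 and 40.0 CPM in C57BL6/J and at 38.3, 46.7 and 137 CPM in IRAK4-KD. All 4 MRL libraries lay above all 3 C57BL6/J libraries, at a mean of 59.1 ± 8.62 against 39.2 ± 2.82 CPM (SD, n = 4 and 3). Such a separation in either direction was seen for 9.63% of all genes, and among the 9 members for Ppp1r1b alone.

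Rgs9, whose product speeds the shut-off of G protein signals (ENSMUSG00000020599.13, chr11:109225355-109298129), had 10.0, 10.8, 9.95 and 8.41 CPM in MRL and 10.9, 11.8, 9.79 and 15.4 CPM in MRL-IRAK4-KD. Its C57BL6/J values were 10.6, 10.6 and 11.7 CPM, and its IRAK4-KD values 9.95, 10.3 and 52.9 CPM. Outside the 2 libraries that stand apart it was the steadiest of the 9 genes, with its highest library at 1.40 times its lowest. Pde10a, a phosphodiesterase that breaks down cAMP and cGMP (ENSMUSG00000023868.17, chr17:8525372-8986648), had 67.7, 52.1, 50.8 and 57.1 CPM in MRL and 54.5, 68.8, 57.3 and 14.6 CPM in MRL-IRAK4-KD. It had 72.5, 61.2 and 55.3 CPM in C57BL6/J and 55.0, 65.6 and 173 CPM in IRAK4-KD. MRL-IRAK4-KD replicate 4 was the lowest of the 14 libraries for Pde10a, at 0.256 times the median of the 12 remaining libraries.

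Penk, the enkephalin precursor (ENSMUSG00000045573.9, chr4:4133531-4138819), was at 23.9, 44.4, 23.9 and 30.6 CPM in MRL and at 28.9, 29.5, 30.2 and 38.3 CPM in MRL-IRAK4-KD. Its level was 30.1, 35.6 and 24.3 CPM in C57BL6/J and 22.1, 24.1 and 121 CPM in IRAK4-KD. IRAK4-KD thus held both the highest library and, in replicate 1, the lowest. Tac1, the precursor of substance P (ENSMUSG00000061762.12, chr6:7554879-7565834), was at 5.36, 12.4, 7.60 and 4.98 CPM in MRL and at 6.20, 6.57, 6.86 and 8.53 CPM in MRL-IRAK4-KD. In C57BL6/J it was at 6.26, 9.64 and 7.72 CPM, and in IRAK4-KD at 5.52, 7.67 and 18.9 CPM. Tac1 had the smallest ratio in the library labelled IRAK4-KD replicate 3, 2.75 times the median of the other 13, and MRL replicate 2 came next at 12.4 CPM.

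Rarb encodes a retinoic acid receptor (ENSMUSG00000017491.9, chr14:16430839-16819156). It had 2.01, 1.79, 1.94 and 1.72 CPM in MRL and 1.69, 2.03, 1.88 and 0.109 CPM in MRL-IRAK4-KD. C57BL6/J libraries had 2.07, 2.22 and 1.78 CPM, and IRAK4-KD libraries 1.17, 1.49 and 7.36 CPM. Rarb in MRL-IRAK4-KD replicate 4 rested on 34 counts and was 0.0597 times the median of the 12 remaining libraries, the lowest of the 14. That library was thus lowest for 2 of the members, Pde10a and Rarb, and next to highest for Drd2, Ppp1r1b and Rgs9, where it was lowest for 25.2% of all genes. On the submitters' lane sheet, its library concentration by quantitative PCR was 13.48 nM against 23.49 to 27.55 nM in the other libraries, and its input RNA reading was 27.4 against 39.6 to 43.7. For the library labelled IRAK4-KD replicate 3 both readings (25.59 nM and 41.2) lay within the range of the others. The part of RNA input in these values was not tested.

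Exons of 3 members share bases with genes of the opposite strand: Ppp1r1b with 1700003D09Rik, Penk with A830012C17Rik, and Rarb with Gm48162 and Top2b. How the counting treated strand is not given in the sources used here, so part of their counts may belong to those neighbours. Drd1, Drd2, Adora2a, Rgs9, Pde10a and Tac1 share no exon bases with another annotated gene. The 9 genes lie on 8 chromosomes, with only Ppp1r1b and Rgs9 on the same one, chromosome 11.

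Levels between genes were compared per kilobase of exon. Over the 13 libraries other than that labelled IRAK4-KD replicate 3, median CPM per kilobase was 18.0 for Penk, 16.1 for Ppp1r1b, 4.44 for Pde10a, 2.02 for Tac1, 1.73 for Drd1, 1.66 for Rgs9, 0.974 for Drd2, 0.545 for Adora2a and 0.339 for Rarb. Penk and Ppp1r1b were not separated, since Penk was the higher of the pair in only 6 of the 13 libraries. The step from Ppp1r1b down to Pde10a held in all 13, without overlap of the ranges. Tac1 was above Drd1 in 9 libraries and Drd1 above Rgs9 in 8, so the 3 genes were of similar level. Rgs9 was above Drd2, and Adora2a above Rarb, in all 13 libraries, although the ranges over libraries overlapped. In the library labelled IRAK4-KD replicate 3, Penk reached 74.2, Ppp1r1b 46.6 and Pde10a 13.4 CPM per kilobase, whereas Drd1, Drd2 and Rgs9 came together at 7.93, 7.96 and 8.29. Drd2 stood below Drd1 per kilobase in the median of the other libraries, and the pair was level there.

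Transcript counts, which StringTie shares out between overlapping isoforms with some uncertainty, were read for the same genes. Rarb-201, the transcript whose first exon holds the repeat shown above, made up 76.5 to 96.0% of Rarb counts outside the library labelled IRAK4-KD replicate 3. The 76.5% came from 26 counts in MRL-IRAK4-KD replicate 4. In the library labelled IRAK4-KD replicate 3, Rarb-201 made up 91.7%. Pde10a-202 made up 92.9% there and 45.7 to 95.1% in the others, with 53.3% (2421 counts) in MRL-IRAK4-KD replicate 4. For both genes the share thus lay within the range of the other libraries. Rgs9-201 made up 40.1% of Rgs9 in the same library, below the 43.2 to 95.4% of the others, and Rgs9-202 made up 30.4%, within their 2.35 to 31.6%. Tac1-203 made up 46.7% of Tac1 counts, just above the 32.3 to 45.7% of the others.

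Other genes known from medium spiny neurons were examined as a list of 31, of which 30 were in the table. All 30 lay above the median of the other 13 libraries in the library labelled IRAK4-KD replicate 3, with ratios of 1.21 to 13.6 and a median of 1.71, below the 4.12 of the members. Over all tested genes the median of the ratio was 0.994. Of the 30, 21 were highest in that library, where 9.09% of all tested genes were. At least 2 times above all others were 6, where 0.612% of all genes were. Among these 6 were Slc35d3, Scn4b, Gpr6, Sh3rf2 and Ido1, named after their values were seen. Pdyn, the dynorphin precursor of direct pathway neurons, reached 27.9 CPM against 10.2 to 20.0, and Adcy5, the main striatal adenylyl cyclase, 172 CPM against 67.2 to 124. Drd3, a dopamine receptor of the ventral striatum, stayed near 0 throughout, at 0.0793 CPM against 0 to 0.0648. For Ptpn5, a striatum-enriched phosphatase, 151 CPM lay inside the 102 to 165 CPM of the other libraries. Bcl11b, a transcription factor that hippocampal neurons also express, likewise lay inside, at 208 CPM against 112 to 219. The other striatal genes thus lay on the same side as the members. Only Ido1 had a ratio beyond the highest of the members, and its median in the other 13 libraries was 0.120 CPM. The ratios of Isl1 (8.97) and Drd3 (7.06) also rested on low medians, 0.239 and 0.0112 CPM.

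**Figure D2:**
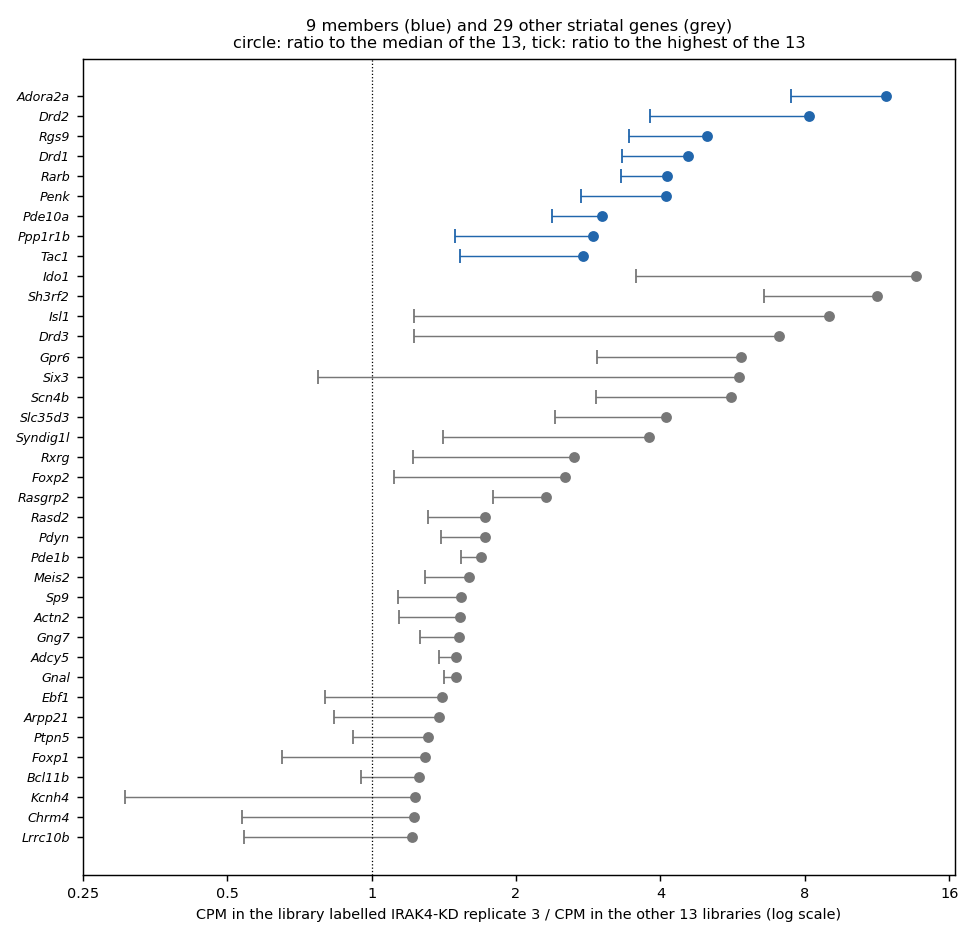
CPM in the library labelled IRAK4-KD replicate 3 divided by the median (circle) and by the highest (tick) of the other 13 libraries, on a log2-spaced axis, for the 9 members (blue) and 29 of the 30 other striatal genes (grey). All circles lie to the right of 1, from 1.21 to 13.6, and all 9 blue ticks do too, whereas 9 grey ticks lie to the left of 1. The largest ratio, that of Ido1, rests on a median of 0.120 CPM in the other 13 libraries.

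The receptors, enzymes and transport proteins that act with the members gave a mixed picture in the same library. The median ratio of the 30 such genes was 1.04. Of the 30, 7 were highest in that library, where 9.09% of all tested genes were. Another 5 were lowest there, where 3301 of the 38070 genes were. Drd3 and Rxrg, both among the 7, also stand in the list of other striatal genes. Among the 6 listed receptors for the peptides made from Penk, Pdyn and Tac1, named after their values were seen, Oprk1 was at 2.80, Tacr1 at 2.47 and Oprm1 at 2.18 times the median of the others. Each was at its highest of the 14 libraries there, where 9.09% of all tested genes were. The remaining 3, Oprd1 at 1.09, Tacr3 at 1.20 and Tacr2 at 1.31 times, lay inside the range of the others. Retinoid receptors other than Rarb diverged: Rxrg was at 2.64 times, whereas Rara was at 0.931, Rarg at 0.836 and Rxra at 0.851 times. Th, the dopamine-synthesis enzyme of midbrain neurons and their fibres, was at 0.632 CPM against 0.29 to 0.626 CPM.

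Markers of the hippocampus and of other tissues and cell types were summed per library. The 5 markers of striatal and basal forebrain cholinergic neurons summed to 7.17 CPM in the one labelled IRAK4-KD replicate 3, against 0.565 to 1.43 CPM in the other 13. All 5 were highest there, where 9.09% of all tested genes were. Chat, which makes acetylcholine, was at 1.46 CPM against 0.0295 to 0.189 CPM, and the transcription factor Lhx8 at 0.733 CPM against 0 to 0.133 CPM. Hippocampal markers summed to 1551 CPM there, inside the 960 to 2485 CPM of the others, and 14 of 14 were detected. Among them the dentate gyrus factor Prox1 was at 125 CPM, just above the 55.9 to 124 CPM of the others, and the CA1 marker Wfs1 at 111 CPM, inside their 80.0 to 118 CPM. The defining markers of the labelled tissue were thus present in that library.

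Sums for thalamus (152 CPM, others 132 to 213), neocortex (208, others 162 to 471), septum and amygdala (110, others 88.7 to 189) and oligodendrocytes (3900, others 3001 to 5404) also lay inside the range of the other libraries. So did those for choroid plexus (175, others 67.1 to 7784) and pituitary (2.13, others 1.57 to 87.2). Of thalamic markers, Tcf7l2 was at 6.39 against 6.23 to 17.9 CPM and Prkcd at 29.9 against 17.3 to 37.0 CPM. Mbp, a myelin gene, was at 1761 CPM against 1410.3 to 2589.9 CPM. In MRL-IRAK4-KD replicate 4 the choroid plexus sum was 7784 CPM, of which Ttr gave 7631 CPM, and 32.1 times the median of the others. Of the 8 choroid plexus markers 5 were highest in that library, where 26.0% of all genes were. Cldn2 (0.200 CPM), Kl (20.6 CPM) and Aqp1 (7.33 CPM) lay inside the range of the others. That library was also highest for the hippocampal sum, of which Zbtb20 gave 1509 CPM. The same held for thalamus, septum and amygdala, and oligodendrocytes, whereas its neocortical sum was the lowest. The part of tissue other than hippocampus in the members' values was not tested.

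**Figure D3:**
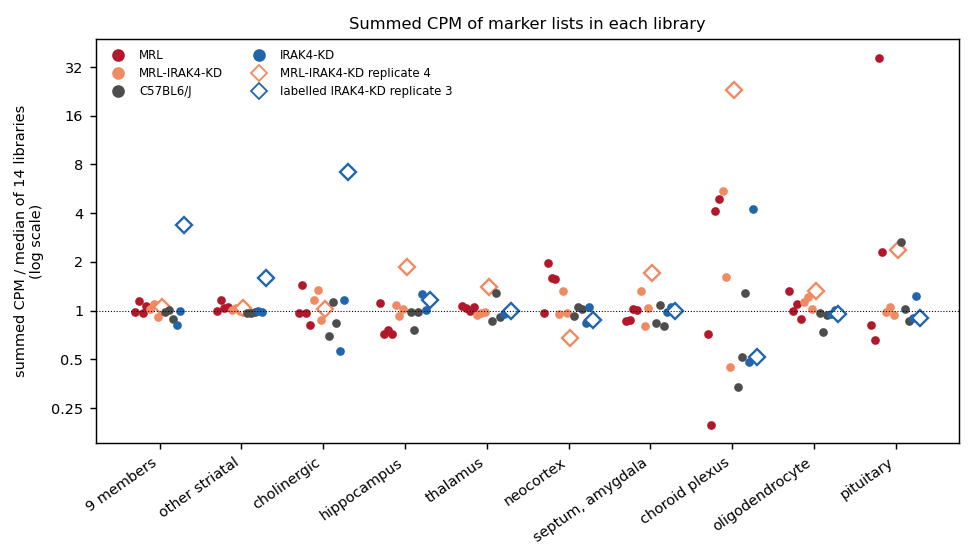
Summed CPM of the 9 members, the other striatal genes and 8 marker lists in each library, divided by the median of the 14 libraries (log2-spaced axis), coloured by group. The library labelled IRAK4-KD replicate 3 (blue diamond) stands above all others for the members, the other striatal genes and the cholinergic list (7.17 CPM), and inside the range for the 7 remaining lists. MRL-IRAK4-KD replicate 4 (orange diamond) is highest for choroid plexus, hippocampus, thalamus, septum and amygdala, and oligodendrocytes, and lowest for neocortex.

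The first comparison that these values enter asks, by its labels, what the kinase-dead mutation does without lupus. With all libraries it includes the library labelled IRAK4-KD replicate 3, which had the Fas transcripts of the lpr groups. In IRAK4-KD against C57BL6/J, the fitted log2 fold change was above 0 for all 9 members, from 0.44 to 2.19 with a median of 0.91. It was 2.19 ± 0.78 for Adora2a, 1.89 ± 0.63 for Drd2 and 1.05 ± 0.47 for Drd1 (± SE, n = 3 against 3). Without the library labelled IRAK4-KD replicate 3, the same values were -0.30 ± 0.28, 0.19 ± 0.32 and -0.05 ± 0.27 (n = 2 against 3). Over the 9 members 2 were then above 0 and 7 below, with a range of -0.61 to 0.19 and a median of -0.12. With all libraries no member was separate between IRAK4-KD and C57BL6/J, where 11.2% of all genes were. Without that library, Adora2a, Rgs9, Penk and Rarb lay lower in both IRAK4-KD libraries than in all 3 C57BL6/J libraries, 4 of 9 against 18.8% of all genes. That separation is between 2 and 3 libraries, and Penk, for example, was at 22.1 and 24.1 CPM against 24.3 to 35.6 CPM.

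**Figure D4:**
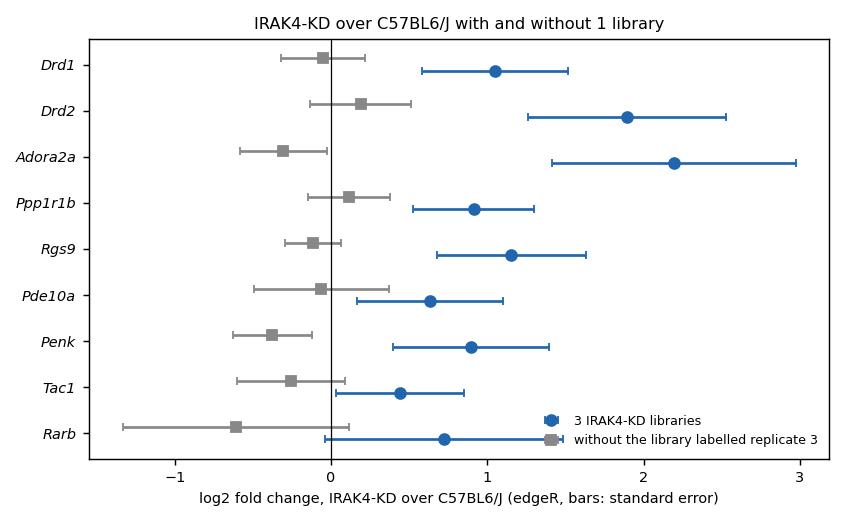
Fitted log2 fold change of IRAK4-KD over C57BL6/J for each of the 9 members, with all 3 IRAK4-KD libraries (blue circles) and without the library labelled replicate 3 (grey squares), bars showing the standard error derived from the edgeR F statistic. All 9 blue circles lie above 0 (0.44 to 2.19), and the grey squares lie between -0.61 and 0.19.

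Both comparisons of the lpr groups with IRAK4-KD held the same library. These comparisons share the IRAK4-KD libraries with the one above, so they do not give independent values. In MRL against IRAK4-KD all 9 members were below 0 on the log2 scale (median -0.86), and without that library 6 were above 0 with a median of 0.20. No member was separate with all libraries, where 12.4% of genes were. MRL libraries then lay above both IRAK4-KD libraries for Adora2a, Ppp1r1b and Rarb, where 21.0% of all genes were separate. In MRL-IRAK4-KD against IRAK4-KD all 9 were below 0, with a median of -1.03, and without that library 7 were above 0 with a median of 0.24. With all libraries no member was separate, where 8.74% of genes were. Penk alone then lay above both IRAK4-KD libraries in all 4 MRL-IRAK4-KD libraries, against 12.4% of genes.

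The comparison of MRL-IRAK4-KD with MRL asks what the mutation does in lupus-prone mice. Its group means do not use the IRAK4-KD libraries, although its standard errors do. Of the 9 members 4 were above 0 and 5 below, with a range of -0.38 to 0.72 and a median of -0.11. No member was separate between the 2 groups, where 5.26% of all genes were. Drd2 had the largest value, 0.72 ± 0.53 (± SE, n = 4 against 4), and without MRL-IRAK4-KD replicate 4 it was 0.44 ± 0.63 (n = 3 against 4). With the library labelled IRAK4-KD replicate 3 out of the fit it was 0.72 ± 0.25, and with both out 0.45 ± 0.20. Rarb went from -0.38 ± 0.66 to -0.00 ± 0.49 and Pde10a from -0.22 ± 0.40 to 0.07 ± 0.34 without MRL-IRAK4-KD replicate 4. With both libraries out of the fit they were 0.01 ± 0.14 and 0.08 ± 0.12, so their negative values rested on MRL-IRAK4-KD replicate 4.

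In MRL against C57BL6/J, the comparison of lupus-prone with control mice, 4 members were above 0 and 5 below, with a median of -0.05. Ppp1r1b had the largest value, 0.59 ± 0.37 (± SE, n = 4 against 3), with the separation of libraries given above. The same value was 0.59 ± 0.22 with the library labelled IRAK4-KD replicate 3 out of the fit, and 0.59 ± 0.15 with both out. In MRL-IRAK4-KD against C57BL6/J, 5 were above 0 and 4 below, with Ppp1r1b at 0.68 ± 0.37, or 0.44 ± 0.41 without MRL-IRAK4-KD replicate 4, 0.68 ± 0.22 without the other library that stands apart, and 0.44 ± 0.16 without both. No member was separate there, where 8.71% of genes were. The interaction, which takes the effect of the mutation in C57BL/6 mice from that in lpr mice, was below 0 for all 9 members with a median of -0.86, and without the library labelled IRAK4-KD replicate 3 it was above 0 for 5 with a median of 0.15.

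The 30 other striatal genes, unlike the members, were tested with edgeR and Benjamini-Hochberg adjustment over all 38070 genes. In MRL-IRAK4-KD against MRL none of the 30 passed an adjusted p of 0.05, where 0.0972% of all genes did, and 6 had an unadjusted p under 0.05 (3 higher, 3 lower) against 11.4% of all genes. The 6 were Kcnh4, a potassium channel gene (log2 fold change -1.46 ± 0.48, edgeR adjusted p = 0.410), the muscarinic receptor gene Chrm4 (-1.07 ± 0.36, edgeR adjusted p = 0.418) and Arpp21, a cAMP-regulated phosphoprotein gene (-0.73 ± 0.27, edgeR adjusted p = 0.437), with lower values in MRL-IRAK4-KD. Bcl11b (0.43 ± 0.15, edgeR adjusted p = 0.432), Lrrc10b (0.78 ± 0.30, edgeR adjusted p = 0.437) and the actin-binding gene Actn2 (0.40 ± 0.18, edgeR adjusted p = 0.439) had higher values. MRL-IRAK4-KD replicate 4 was the highest of its group for Bcl11b (219 against 165 to 183 CPM), Lrrc10b (90.0 against 40.3 to 57.8) and Actn2 (17.4 against 10.7 to 13.3). It was the lowest of its group for Kcnh4 (2.47 against 2.77 to 6.70 CPM), Chrm4 (1.88 against 6.56 to 7.08) and Arpp21 (99.3 against 141 to 212). Their fold changes without that library are not reported here. DESeq2 also called none of the 30 in this comparison. In MRL, Kcnh4, Chrm4 and Arpp21 were lowest in replicate 1 (3.40, 7.14 and 146 CPM) and highest in replicate 2 (18.7, 16.2 and 346 CPM). Neocortical markers summed to 229 CPM in replicate 1 and 471 CPM in replicate 2, the lowest and the highest of that group. The part of neocortical tissue in these values was not tested.

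None of the 30 passed in the other comparisons either, by edgeR. Adjusted p fell under 0.05 for 0.147% of all genes in IRAK4-KD against C57BL6/J, 0.441% in MRL against IRAK4-KD, 0.0735% in MRL-IRAK4-KD against IRAK4-KD, 0.0972% in MRL-IRAK4-KD against C57BL6/J, 0.00263% in the interaction and 0 genes in MRL against C57BL6/J. The median log2 fold change of the 30 genes was 0.38 in IRAK4-KD against C57BL6/J, where 5 had an unadjusted p under 0.05, all higher, against 3.80% of all genes, and -0.03 without the library labelled IRAK4-KD replicate 3, where none did. In MRL against IRAK4-KD the median was -0.39 with that library and 0.29 without it, and in MRL-IRAK4-KD against IRAK4-KD -0.29 and 0.11. DESeq2 called none of the 30 in these comparisons with the exception of Kcnh4 in MRL against IRAK4-KD (1.64 ± 0.49, DESeq2 adjusted p = 0.0273). Neocortical markers moved in the same comparison, Cux2 by 1.27 ± 0.34 and Lamp5 by 1.38 ± 0.34 (DESeq2 adjusted p = 0.00803 and 0.00282). Kcnh4 was at 3.40, 18.7, 9.48 and 9.60 CPM in MRL replicates 1 to 4, whose neocortical markers summed to 229, 471, 380 and 376 CPM, and the part of neocortical tissue in its value was not tested. Unadjusted p fell under 0.05 for 6 of the 30 in that comparison (9.09% of all genes) and for 7 in MRL-IRAK4-KD against IRAK4-KD (8.63%). It did so for 2 in MRL against C57BL6/J (5.55%), for 2 in MRL-IRAK4-KD against C57BL6/J (8.62%) and for 4 in the interaction (4.17%). As with the members, the sign of the list's median in comparisons with IRAK4-KD turned on 1 library.

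None of the 30 signalling partners passed by edgeR in any comparison with all 14 libraries. In MRL-IRAK4-KD against MRL 2 had an unadjusted p under 0.05 by edgeR, where 11.4% of all genes did. The 4 with the smallest p were the adenosine receptor genes Adora3 (-0.59 ± 0.21, edgeR adjusted p = 0.432) and Adora1 (0.40 ± 0.15, edgeR adjusted p = 0.437), the retinoic acid synthesis gene Aldh1a3 (-0.51 ± 0.24, edgeR adjusted p = 0.439) and the dopamine receptor gene Drd5 (0.48 ± 0.27, edgeR adjusted p = 0.463). MRL-IRAK4-KD replicate 4 was the highest of its group for Adora1 (475 against 295 to 334 CPM) and the lowest for Aldh1a3 (0.528 against 0.696 to 0.819). For Adora3 and Drd5 it lay against the direction of the fold change. DESeq2 called 1 partner, Ddc, which makes dopamine and serotonin from their precursors, as higher in MRL-IRAK4-KD and in MRL than in IRAK4-KD (0.63 ± 0.15 and 0.50 ± 0.15, DESeq2 adjusted p = 0.00988 and 0.0362). By edgeR, Ddc passed in MRL against IRAK4-KD once MRL-IRAK4-KD replicate 4 was left out (0.50 ± 0.12, edgeR adjusted p = 0.0394).

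The median correlation between members was low once the 2 libraries that stand apart were set aside, and pairs differed in sign. Over the 12 remaining libraries, Spearman correlations of the 36 pairs of members ran from -0.41 to 0.60 with a median of 0.13, and 26 of the 36 were above 0. Within those 12 libraries the highest level of a member was 1.40 to 2.48 times its lowest, the widest being Tac1. These points share library preparation and depth, and no test was made.

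Over all 14 libraries, the gene most like the mean z-score of the members among 16095 genes with a mean of at least 1 CPM was Slc35d3 (Spearman rho 0.916, Pearson r 0.927), a gene of the list of other striatal genes. It was followed by 5530601H04Rik (rho 0.903), Lekr1 (0.886), Tbc1d8 (0.877), Tbc1d23, Rian and Gm43268 (0.873 each), Slc25a40 (0.868), Lcorl (0.859) and Cep63 (0.855). Of these 10 only Slc35d3 shared the size of the members' rise in the library labelled IRAK4-KD replicate 3, at 4.11 times the median of the others, while the remaining 9 were at 1.03 to 1.59 times. With both libraries that stand apart left out, Slc35d3 fell to a rho of 0.692 over 12 libraries and was no longer the most alike of the 10, with 5530601H04Rik at 0.797, Gm43268 at 0.769 and Lcorl at 0.699.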

How the data were processed

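RNA was taken from hippocampus in 14 libraries. Per the labels, reads were aligned with HISAT2 2.1.0 and SAMtools 1.9 to mm10 and assembled with StringTie 2.1.0. The deposited tables give counts of genes and of transcripts as whole numbers, which the authors had not normalized. The labels name a KAPA HyperPrep mRNA preparation and the study's methods a SMART-seq preparation, so the kit is uncertain. The submitters' lane sheet gave library concentration and input RNA. The 26345 features without an Ensembl gene ID, at most 0.188% of a library's counts, were left out. Genes with at least 10 counts over all libraries (38070) were fitted with edgeR 4.0.16 (R 4.3.3; TMM, quasi-likelihood, all 4 groups in 1 fit), with Benjamini-Hochberg adjustment over all of them. The study's methods name DESeq2, which was the alternative (1.42.0). Standard errors for edgeR were derived as the absolute log2 fold change divided by the square root of its quasi-likelihood F statistic. TMM factors were 0.961 to 1.03. The test was tried on simulated counts with known changes, and the outcome is not reported here. Figures were drawn with matplotlib 3.10.9.

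The members, the lists (31 other striatal genes, 30 signalling partners, 8 marker lists) and the tests were chosen with earlier results of these data known. Named were the members, set striatal genes (Adcy5, Ptpn5, Pdyn, Drd3 and Bcl11b), listed genes called in a comparison or otherwise those of smallest p in MRL-IRAK4-KD minus MRL (6 striatal, 4 partners), set defining markers, and the 10 genes most like the members, compared on log2(CPM + 0.1). Gpr52 was not analysed here, and some listed genes are not reported here. Alternatives were RLE size factors, DESeq2, other filters, a replicate block, 2-group fits, transcript counts summed per gene, and leaving out each library.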

Additional observations from a re-analysis of the deposited data

Results flagged for a closer look

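In groups of 4, a library was picked out where its gap to the nearest other library took up most of the range of its group, by Dixon's criterion at 95%. Of 40 groups examined, 6 had such a library, and chance gives about 2 (1 in 20). Penk in MRL-IRAK4-KD replicate 4 was at 38.3 CPM, against 28.9 to 30.2 CPM in the other 3 libraries of the group. The summed hippocampal markers of MRL replicate 1 were at 1490 CPM, against 960 to 1019 CPM in the others of its group. The summed thalamic markers of MRL-IRAK4-KD replicate 4 were at 213 CPM, against 143 to 148 CPM. The summed pituitary markers of MRL replicate 3 were at 87.2 CPM, against 1.57 to 5.51 CPM, and those of MRL-IRAK4-KD replicate 4 at 5.65 CPM, against 2.25 to 2.51 CPM. The input RNA reading of MRL-IRAK4-KD replicate 4 was 27.4, against 41.2 to 43.7 in the others of its group. Groups of 3 were not examined in this way, so the library labelled IRAK4-KD replicate 3 was not judged by it.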

How the results depend on the processing

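The count of other striatal genes called was 0 in every comparison by edgeR, under RLE size factors, other filters, 2-group fits, each library left out and the replicate block (0 called), and also without both libraries that stand apart, a setting chosen after seeing the data. DESeq2 called 1 (Kcnh4) in MRL against IRAK4-KD, and 0 in the others. Of the marker lists, edgeR called 0 genes in MRL-IRAK4-KD against MRL, DESeq2 called 4 (Lef1, Sim1, Cux2 and Spink8), and leaving out 1 library gave 0 to 1 (Cux2, without MRL replicate 1). Sim1 was near the floor, at 0 CPM in all MRL-IRAK4-KD libraries and 0 to 0.306 CPM in MRL. In the remaining comparisons, DESeq2 also called Chat in IRAK4-KD against C57BL6/J. Chat was at 0.0917, 0.125 and 1.46 CPM in IRAK4-KD, the last in the library labelled replicate 3, against 0.0295 to 0.0800 CPM in C57BL6/J. DESeq2 further called Lef1, Slc17a6, Cux2 and Lamp5 in MRL against IRAK4-KD. There edgeR called Cux2 and Lamp5 without MRL replicate 1, and Lef1 and Zbtb20 without MRL-IRAK4-KD replicate 4. The cause was not tested. The direction of the members in comparisons with IRAK4-KD changed only without the library labelled IRAK4-KD replicate 3.

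Replicate numbers did not pair the libraries: over 19 same-numbered pairs, deviations from the group means correlated at -0.264 to 0.394, 5 of them over 0.1, and a library correlated best with its own number in 10 of 38 cases. With the block, 34 genes in place of 37 were called in MRL-IRAK4-KD against MRL.

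Groups of 3 and 4 libraries limit what can be told, and Rarb in MRL-IRAK4-KD replicate 4 and Drd3 rest on few counts.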
